A study of Schizosaccharomyces pombe with 3 samples.

Results

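The 6 protein-coding genes described here are SPBC21B10.15, SPBC1921.04c, mrpl39, SPBC2A9.14, tam9 and SPBC336.16 of the fission yeast Schizosaccharomyces pombe. They were picked out of 893 protein-coding genes for large falls of histone H3 lysine 9 acetylation (H3K9ac) in the alp13 deletion. Their difference between the alp13 deletion and wild type therefore chose them, and it is given below as a description. All 6 had at least 3 probes, and none was lost to a filter. Counted from the deepest fall, they ranked 1, 2, 3, 4, 8 and 9 among the 893 genes. The genes in between were rpl26 (-1.66), SPBC2A9.13 (-1.65) and SPBC16E9.20 (-1.64), as log2 differences of the alp13 deletion minus wild type. Just below rank 9 came oxs1 (-1.61), mat1-Mi (-1.60, from 3 probes) and SPBC3E7.07c (-1.57). The genes are short: they spanned 273 to 1017 bp, where the median of all 893 genes was 1715 bp. mrpl39 is the longest, and 168 of its 1017 bp are coding.

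The study mapped H3K9ac by chromatin immunoprecipitation on tiling arrays of 60-base probes spaced 50 bp apart, with 1 array for each of 3 strains: the alp13 deletion, asf1-1 (an allele of asf1) and wild type. All 3 cultures were growing logarithmically in the rich medium YEA at 30 °C when they were fixed with 3% paraformaldehyde at 18 °C. Chromatin was sheared to fragments of 500 to 1000 bp, and the antibody fraction was labelled with Cy5 and the whole-cell extract with Cy3 after random-primed PCR. The labels give no further genotype, and they do not say how many clones or cultures stand behind an array.

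With 1 array a strain, no difference below has a replicate check, and none was tested. A level is the log2 ratio of Cy5 to Cy3, set to 0 at the median of its array. A gene's level is the mean over the probes inside it, and the SD beside a value is the spread across those probes, not an error between cultures. A difference counts as called when it reaches 1.5-fold, which is 0.585 on the log2 scale. The only measured error is that of 239 near-duplicate probe pairs on the same arrays, whose SD was 0.133 for 1 probe's change in the alp13 deletion and 0.0768 in asf1-1. No array measured total histone H3, so less acetylation and fewer nucleosomes cannot be told apart. The probes do not cover alp13 or asf1, so the strain behind each array rests on its label. Across 43912 probes the levels of asf1-1 and wild type correlated at r = 0.894, those of the alp13 deletion and wild type at r = 0.476, and those of asf1-1 and the alp13 deletion at r = 0.712.

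H3K9ac is set by histone acetyltransferases and removed by histone deacetylases, and in yeasts it is usually richest around the starts of active genes. Alp13 is a chromodomain protein of a Clr6 histone deacetylase complex, which is known for keeping transcribed coding regions low in acetylation. Asf1 is a chaperone that carries histones H3 and H4 to nucleosome assembly.

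Of the 6 products, 2 belong to the large subunit of the mitochondrial ribosome: mrpl39 (SPBC4F6.08c) encodes subunit bL33m and tam9 (SPBC1711.18) encodes bL31m. The other 4 are annotated as uncharacterized proteins, a label carried by 69 of all 893 genes (7.73%) and by 41 of the 224 shortest (18.3%). The reading frames hold 56 to 118 codons with the stop, and 3 of the 6 genes have an intron in the coding part. All 6 lie on chromosome II, 5 on the minus strand and 1, tam9, on the plus strand.

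The sequence around the annotated start is shown for 4 genes, because the probes read H3K9ac across it in all 6 and it shows what the motif counts rest on. Each runs 5′ to 3′ on the gene's own strand from 250 bases before to 50 bases from the start, read from the RefSeq genome ASM294v3. Capitals mark the motifs that were searched on both strands: TATAAA, a run of 8 or more A or of 8 or more T, the HomolD sequence CAGTCACA, the HomolE-like sequence ACCCTACC and the cyclic AMP response element TGACGTCA. The windows are chrII:1666046-1666345, minus strand, for SPBC21B10.15, chrII:2411355-2411654, minus strand, for SPBC1921.04c, chrII:2701702-2702001, minus strand, for mrpl39, and chrII:2144777-2145076, plus strand, for tam9.
SPBC21B10.15: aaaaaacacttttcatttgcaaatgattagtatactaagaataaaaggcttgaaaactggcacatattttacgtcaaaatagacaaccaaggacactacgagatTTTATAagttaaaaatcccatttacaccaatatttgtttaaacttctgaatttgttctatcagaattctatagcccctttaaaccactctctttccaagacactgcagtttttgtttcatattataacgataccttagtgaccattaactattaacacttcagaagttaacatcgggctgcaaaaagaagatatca
SPBC1921.04c: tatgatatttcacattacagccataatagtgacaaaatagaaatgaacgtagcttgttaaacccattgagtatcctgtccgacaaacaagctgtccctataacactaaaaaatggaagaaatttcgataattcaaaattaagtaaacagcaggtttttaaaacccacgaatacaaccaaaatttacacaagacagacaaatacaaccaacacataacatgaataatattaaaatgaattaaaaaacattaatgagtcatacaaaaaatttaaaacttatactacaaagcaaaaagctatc
mrpl39: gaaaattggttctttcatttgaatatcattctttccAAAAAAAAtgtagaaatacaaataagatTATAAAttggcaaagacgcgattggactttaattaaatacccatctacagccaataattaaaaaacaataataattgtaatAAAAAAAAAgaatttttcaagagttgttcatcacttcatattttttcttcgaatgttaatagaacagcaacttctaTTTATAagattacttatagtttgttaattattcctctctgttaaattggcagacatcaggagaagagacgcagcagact
tam9: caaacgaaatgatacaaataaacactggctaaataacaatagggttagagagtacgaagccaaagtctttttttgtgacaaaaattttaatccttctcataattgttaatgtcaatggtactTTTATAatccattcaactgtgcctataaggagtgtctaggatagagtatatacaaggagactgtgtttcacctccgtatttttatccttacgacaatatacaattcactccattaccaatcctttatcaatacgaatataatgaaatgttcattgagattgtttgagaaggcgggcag

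TATAAA or its reverse complement TTTATA was present in 4 of the 6 windows, and in 48.1% of 5112 windows cut the same way at protein-coding genes. It began 146 bases before the start of SPBC21B10.15, 186 and 29 bases before that of mrpl39 and 128 bases before that of tam9, and it lay 35 bases inside SPBC336.16. SPBC1921.04c and SPBC2A9.14 had no match to any of the motifs. The A or T run was in mrpl39 alone (21.1% of all windows). HomolD (2.68%), the HomolE-like sequence (1.62%) and the response element (0.274%) were in none of the 6. A match is a description of letters and says nothing of what binds there.

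In the alp13 deletion all 6 genes had H3K9ac below the array median, whereas in wild type all 6 were above it, and asf1-1 lay in between at every gene. The order alp13 deletion, asf1-1, wild type from low to high was seen at 70 of the 70 probes inside the genes. Of all probes inside protein-coding genes, 28.5% had that order, and of all genes 301 of 893 (33.7%) had it. Among the 10899 probes between genes 79.5% had it, so the order was common outside coding genes. Since the genes were chosen on the outer values of this order, only the place of asf1-1 within it is free of the choice, and the wide gap between the outer values leaves more room for it in the middle. The called share among all genes in the alp13 deletion was 21.8% lower and 15.3% higher, and 7.95% were lower by 2-fold or more. All 6 genes were lower by more than 2-fold, which follows from the choice.

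**Figure D1:**
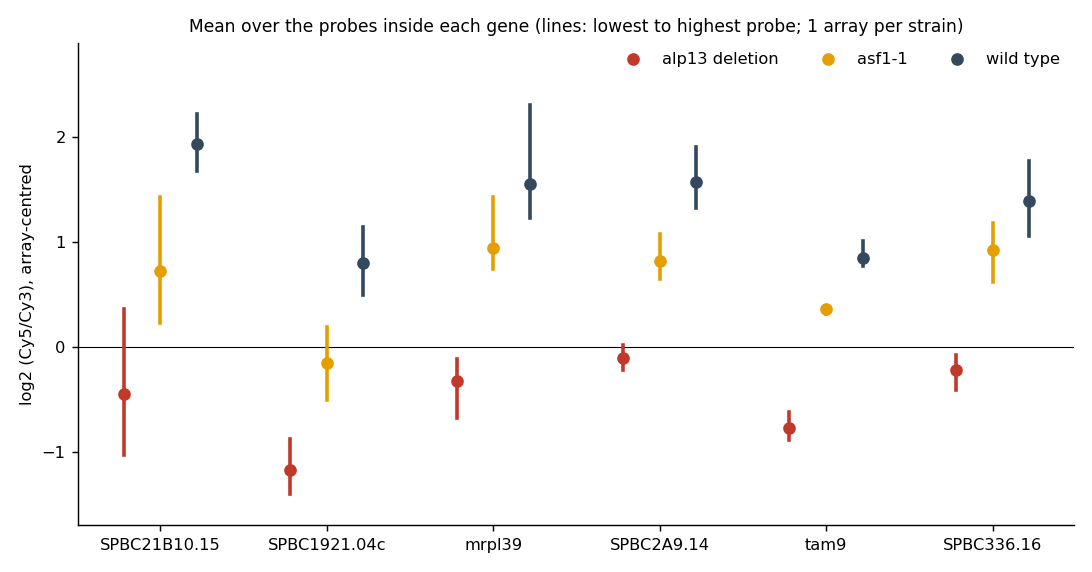
H3K9ac level (log2 Cy5 over Cy3, array median at 0) of the 6 genes in the alp13 deletion, asf1-1 and wild type, with 1 array a strain. Points are means over the probes inside a gene and lines span the lowest to the highest probe; at each gene the alp13 deletion is lowest, with means from -1.17 to -0.11, and wild type is highest, with means from 0.80 to 1.93.

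SPBC21B10.15 (chrII:1665510-1666095, minus strand, 586 bp) codes for a protein of 61 codons with the stop in 2 exons, between an annotated leader of 178 bases and a trailer of 112 bases. Its level over 12 probes was -0.45 ± 0.52 in the alp13 deletion, 0.72 ± 0.44 in asf1-1 and 1.93 ± 0.18 in wild type. In wild type it was the gene with the 3rd highest level of the 893, and in the alp13 deletion its probes lay between -1.04 and 0.36, so the probe ranges of these strains (1.68 to 2.22 in wild type) do not touch. The change in the alp13 deletion was -2.39 ± 0.47, a 5.23-fold lower ratio and the deepest of all genes. The change was not even along the gene. In the first 100 bp the level in the alp13 deletion was 0.31, against 2.07 in wild type, but between 300 and 400 bp it was -0.81, against 2.05 in wild type, a difference of -2.86. The fall therefore deepened inside the gene, where the wild-type bins stayed between 1.73 and 2.11.

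SPBC1921.04c (chrII:2410996-2411404, minus strand, 409 bp) codes for a protein of 118 codons with the stop in 1 exon, and it overlaps the small nucleolar RNA gene sno20 on the plus strand by 172 bp. Its 8 probes averaged -1.17 ± 0.20 in the alp13 deletion, -0.15 ± 0.21 in asf1-1 and 0.80 ± 0.20 in wild type. It was the lowest of the 6 in every strain and the only one below the array median in asf1-1. The change in the alp13 deletion was -1.97 ± 0.13, with single probes from -2.22 to -1.79. All 8 probes thus moved by nearly the same amount, although the wild-type level itself sank along the gene and reached 0.60 between 200 and 300 bp. The level in wild type was higher outside, at 1.57 over the 500 bp upstream and 1.00 over the 500 bp downstream.

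mrpl39 (chrII:2700735-2701751, minus strand, 1017 bp) has 56 codons with the stop in 3 exons, an annotated leader of 502 bases and a trailer of 238 bases. Its level over 21 probes was -0.33 in the alp13 deletion, 0.94 in asf1-1 and 1.55 in wild type, and the change in the alp13 deletion was -1.89 ± 0.33. Wild type had a peak of 2.31 at 110.5 bp past the annotated start, within the leader. The deepest single change, -2.73, was at 60.5 bp, so at this gene the difference was largest beside the wild-type peak. Probes in coding sequence changed less, by -1.64 (4 probes), than the 17 probes in the rest of the gene, by -1.94. Coding probes changed more than the rest at SPBC21B10.15 (-2.75 against -2.21), SPBC336.16 (-1.85 against -1.50) and SPBC2A9.14 (-1.77 against -1.62). At SPBC1921.04c they were nearly alike (-1.97 against -1.95, the latter from 1 probe), and tam9 had coding probes only. In the first 100 bp the level was -0.60 in the alp13 deletion, 1.04 in asf1-1 and 1.86 in wild type. Of all spots read inside the 6 genes, 1, in mrpl39, was not well above background.

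SPBC2A9.14 (chrII:2960367-2960910, minus strand, 544 bp) codes for a protein of 67 codons with the stop in 2 exons. SPBC2A9.13, a 241 bp reading frame of unknown function on the plus strand, lies wholly inside it, and so its 5 probes are shared. The level of SPBC2A9.14 over 11 probes was -0.11 in the alp13 deletion, 0.82 in asf1-1 and 1.57 in wild type, with a change of -1.68 ± 0.13 in the alp13 deletion. The nested SPBC2A9.13 had -0.13 in the alp13 deletion, 0.76 in asf1-1 and 1.52 in wild type. Within 100 bp bins the change of SPBC2A9.14 was -1.79 in the first 100 bp and -1.58 between 400 and 500 bp, and the level in the alp13 deletion was the highest of the 6 genes.

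tam9 (chrII:2145027-2145299, plus strand, 273 bp) is the shortest of the 6 and has 87 codons with the stop in 1 exon, with 12 bases of annotated leader. Its 6 probes averaged -0.77 in the alp13 deletion, 0.36 in asf1-1 and 0.84 in wild type, and the change in the alp13 deletion was -1.62 ± 0.12. The wild-type level climbed through the gene and beyond it, and was -0.22 in the bin 500 to 400 bp upstream, 0.79 in the first 100 bp and 1.13 between 500 and 600 bp. In the alp13 deletion the same bins held -1.15, -0.68 and -0.83, so no such climb past the gene was seen.

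SPBC336.16 (chrII:2732338-2732916, minus strand, 579 bp) has 72 codons with the stop in 1 exon and an annotated trailer of 363 bases, whose end overlaps SPBC18A7.02c, which encodes a transmembrane receptor-like protein, by 31 bp. Over 12 probes its level was -0.23 in the alp13 deletion, 0.92 in asf1-1 and 1.39 in wild type, with a change of -1.61 ± 0.24 in the alp13 deletion. The change was -1.97 in the first 100 bp. In the bin 500 to 400 bp upstream the level was 0.77 in the alp13 deletion, 1.32 in asf1-1 and 1.55 in wild type, so there the difference of the alp13 deletion was -0.77, and the fall steepened toward the gene while wild type stayed level.

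**Figure D2:**
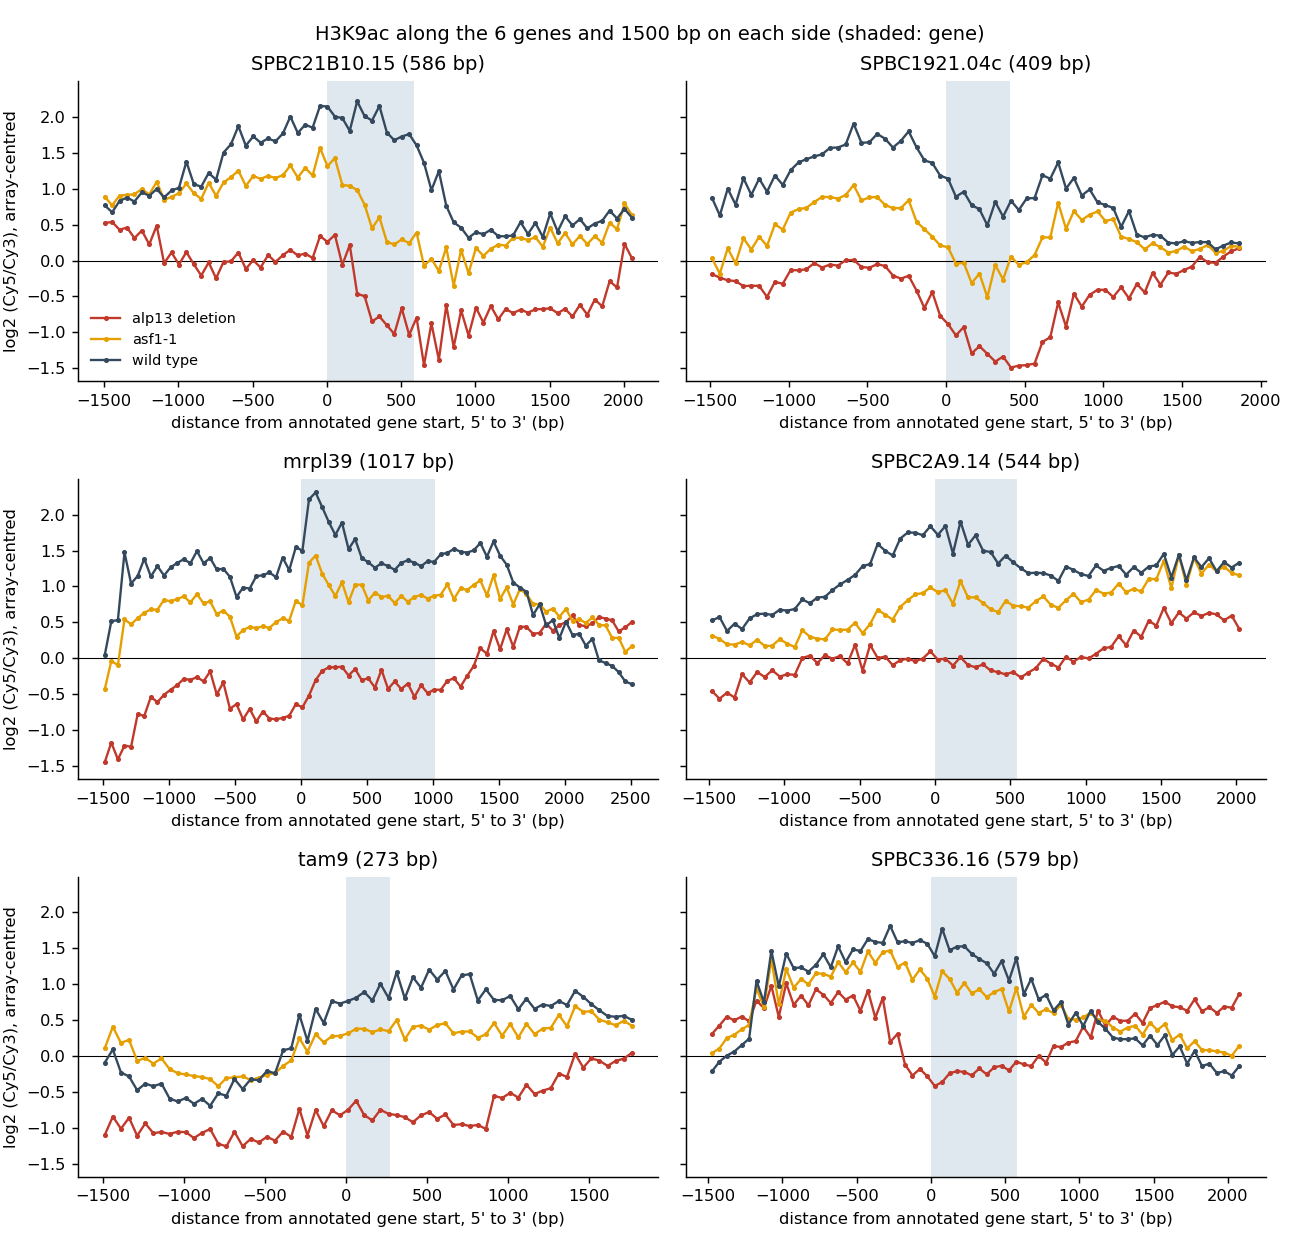
H3K9ac level (log2 Cy5 over Cy3, array median at 0) against distance from the annotated start (bp, 5′ to 3′) in the alp13 deletion, asf1-1 and wild type, 1 panel a gene; points are probes and the shaded span is the gene. Within the genes and 500 bp of them the alp13 deletion runs below wild type at every probe. Farther out these lines cross on both sides of SPBC336.16 and downstream of mrpl39.

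Low H3K9ac was also read on both sides of the gene bodies. In the alp13 deletion the mean over the 500 bp on either side was below wild type by 1.5-fold or more in 12 of 12 flanks. Among all genes, 72.3% of upstream and 40.2% of downstream flanks were lower by that much, so the count on the downstream side stands further from its background than that on the upstream side. The flanks touch the genes and are read from the same arrays as the choice, so they are a description too. The chromatin fragments, of 500 to 1000 bp, are at least as long as a flank. A fall in the flank therefore cannot be told apart from signal of the gene, and neighbouring 100 bp bins have the same limit. Within the genes and both flanks, 185 of 190 probes were lower by at least 1.5-fold, and the remaining 5 were all near SPBC336.16, where 27 of 32 were. The median change was -1.07 over all probes between genes and 0.14 over all probes inside protein-coding genes. Most probes between genes were therefore lower by 1.5-fold too, but the exact share was not counted. Of the 120 flank probes, 31 lie in another protein-coding gene.

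In 3 genes a flank was deeper than the gene itself. Downstream of tam9 the level was -0.88 in the alp13 deletion, 0.38 in asf1-1 and 1.07 in wild type, a change of -1.94 in the alp13 deletion against -1.62 in tam9. Downstream of SPBC1921.04c the change was -2.07, with the level at -1.07 in the alp13 deletion, 0.32 in asf1-1 and 1.00 in wild type. Upstream of mrpl39 it was -1.94, slightly past the -1.89 of the gene, with -0.78 in the alp13 deletion, 0.48 in asf1-1 and 1.16 in wild type. At the other end of the range, all 10 probes downstream of SPBC336.16 lie in another coding gene, and their level was 0.10 in the alp13 deletion, 0.60 in asf1-1 and 0.71 in wild type.

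An unbroken run of probes with a change of -1 or below passed through each gene. The run was 4210 bp long at mrpl39, where the next gene upstream, str1, is 2905 bp away. It was 2910 bp at SPBC21B10.15, 2510 bp at SPBC1921.04c, 1810 bp at tam9, 1710 bp at SPBC2A9.14 and 910 bp at SPBC336.16. The 259 such runs of 10 or more probes had a median of 910 bp and a maximum of 6110 bp, and the run at mrpl39 was the 8th longest. The run at SPBC336.16 had the median length, so a long run is not common to all 6.

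The next genes changed less than the 6, which largely follows from choosing the 6 for deep falls. Their median length was 1827.5 bp, against 561.5 bp for the 6, and the part of length was not tested. Of the 12 next protein-coding genes on either side, overlapping genes left out, 4 were lower by 1.5-fold or more in the alp13 deletion and none was higher, with a median change of -0.06, where 21.8% of all genes were lower by that much. The lower ones were nrf1 (-1.13), a subunit of the vacuolar transporter chaperone complex next to SPBC21B10.15, and sec22 (-1.01), a SNARE protein gene beside SPBC2A9.14. On the other side of SPBC2A9.14, hpz1, a zinc finger gene, changed by -0.92, and rpl401, a gene for the cytoplasmic ribosomal protein uL4 upstream of tam9, changed by -0.77. The highest was xpa1, a peptidase gene 1563 bp downstream of SPBC336.16, at 0.43. Nearer to SPBC336.16 lies SPBC18A7.02c, which overlaps it and changed by 0.18. Both neighbours of SPBC2A9.14 were thus lower, whereas those of SPBC1921.04c were at 0.32 (mex67) and 0.34 (ape2). In asf1-1 none of the 12 was lower by 1.5-fold.

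In asf1-1 the genes moved the same way and less far. This difference uses the same wild-type array as the one that chose the genes, so a high wild-type reading enters both. Among all genes 2.13% were lower by 1.5-fold or more in asf1-1 (19 of 893), and 4 of the 6 genes were among them. SPBC21B10.15 changed by -1.21 ± 0.35 and ranked lowest of all genes, and it was the only one of the 6 past 2-fold (0.336% of all genes). SPBC1921.04c changed by -0.95 ± 0.07 and ranked 6, SPBC2A9.14 by -0.75 ± 0.09 with rank 10, and mrpl39 by -0.61 ± 0.20 with rank 17. tam9 (-0.49 ± 0.08) and SPBC336.16 (-0.47 ± 0.11) did not reach 1.5-fold. Under 9 other ways of processing, SPBC21B10.15 passed 1.5-fold in all 9, SPBC1921.04c in 7, SPBC2A9.14 in 6 and mrpl39 in 3, so the call at mrpl39 rests on the setting. The 2 genes outside the call were also the 2 with the smallest changes in the alp13 deletion.

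The change in asf1-1 also varied along the genes. In SPBC21B10.15 it was -0.70 in the first 100 bp and -1.53 between 300 and 400 bp. In mrpl39 it was -0.90 between 100 and 200 bp and -0.44 between 500 and 600 bp, past the wild-type peak. Of the 12 flanks, 6 were lower by 1.5-fold in asf1-1, where among all genes 13.5% of upstream and 8.51% of downstream flanks were. Those 6 were both flanks of SPBC1921.04c, the upstream flanks of mrpl39 and SPBC2A9.14, and the downstream flanks of SPBC21B10.15 and tam9.

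Set directly against the alp13 deletion, asf1-1 had a higher ratio of Cy5 to Cy3 at all 6 genes. This difference shares the alp13 deletion array with the choice. It was 1.27 ± 0.22 at mrpl39, with 0.94 in asf1-1 and -0.33 in the alp13 deletion, the highest of the 893 genes. SPBC21B10.15 stood at 1.17 ± 0.18, SPBC336.16 at 1.14 ± 0.18, tam9 at 1.13 ± 0.09, SPBC1921.04c at 1.02 ± 0.16 and SPBC2A9.14 at 0.93 ± 0.07. All 6 passed 1.5-fold, where 16.2% of all genes were higher by that much, and 5 passed 2-fold, where 2.80% of all genes did. On Cy5 alone 5 of the 6 passed 1.5-fold, where 66 of the 893 genes were higher by that much. The exception was SPBC21B10.15, at 0.34 on Cy5 alone. Its centred whole-cell extract signal was -2.97 in asf1-1 and -2.17 in the alp13 deletion, so much of its difference lay in that channel. The spread across probes describes variation along a gene, so it cannot tell whether the 6 genes differ among themselves.

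**Figure D3:**
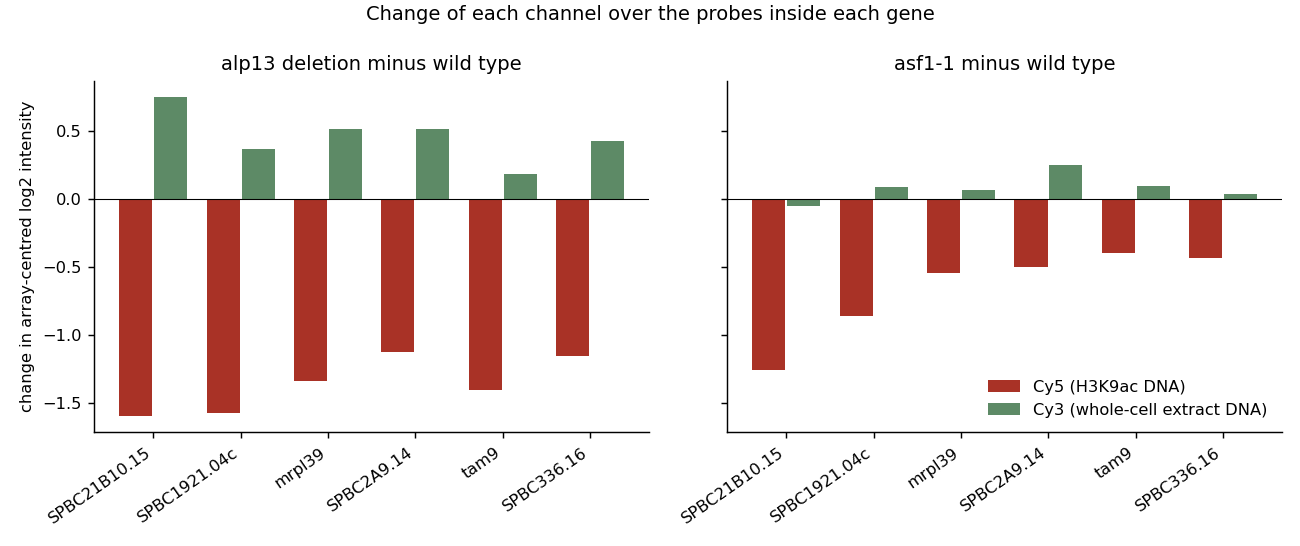
Change of the Cy5 (H3K9ac) and Cy3 (whole-cell extract) signal, as log2 differences after each channel was set to its array median, in the alp13 deletion minus wild type and in asf1-1 minus wild type, for each of the 6 genes. In the alp13 deletion Cy5 was lower, by -1.60 to -1.13, and Cy3 was higher, by 0.18 to 0.75, at every gene; in asf1-1 Cy3 stayed between -0.05 and 0.25.

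Taken apart into channels, most of the change lay in the precipitated DNA. In the alp13 deletion the Cy5 signal alone changed by -1.60 at SPBC21B10.15, -1.57 at SPBC1921.04c, -1.40 at tam9, -1.34 at mrpl39, -1.16 at SPBC336.16 and -1.13 at SPBC2A9.14. All 6 were past 1.5-fold on Cy5 alone, where 119 of the 893 genes were lower by that much. The whole-cell extract signal was also higher at all 6 in the alp13 deletion than in wild type, by 0.75 at SPBC21B10.15, 0.52 at SPBC2A9.14 and mrpl39, 0.43 at SPBC336.16, 0.37 at SPBC1921.04c and 0.18 at tam9. The share of all genes with a higher extract signal was not counted, so the rise is not shown to be particular to the 6. In asf1-1 the Cy5 change was -1.26 at SPBC21B10.15 and -0.86 at SPBC1921.04c, and these 2 were the ones past 1.5-fold on Cy5 alone. Of the 893 genes, 10 were lower by that much in asf1-1 on Cy5 alone.

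The 6 genes were dim in the whole-cell extract. SPBC21B10.15 had the lowest mean Cy3 signal of all 893 genes, mrpl39 ranked 4, SPBC1921.04c 6, SPBC336.16 44, tam9 121 and SPBC2A9.14 205, so all 6 lay among the 224 dimmest. With the genes cut into 4 groups of 223 or 224 by this signal, the median change in the alp13 deletion was -0.55 in the dimmest group, then -0.06, 0.14 and 0.23 in the brighter ones. The genes were also rich in A and T: mrpl39 (30.4% G and C), SPBC336.16 (30.6%) and SPBC21B10.15 (31.2%) ranked 5, 6 and 7 from the lowest, SPBC2A9.14 had 34.0% and SPBC1921.04c 34.2%, and only tam9, with 40.3%, was above the median of 36.9%. The part of signal and base composition in the changes was not tested.

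**Figure D4:**
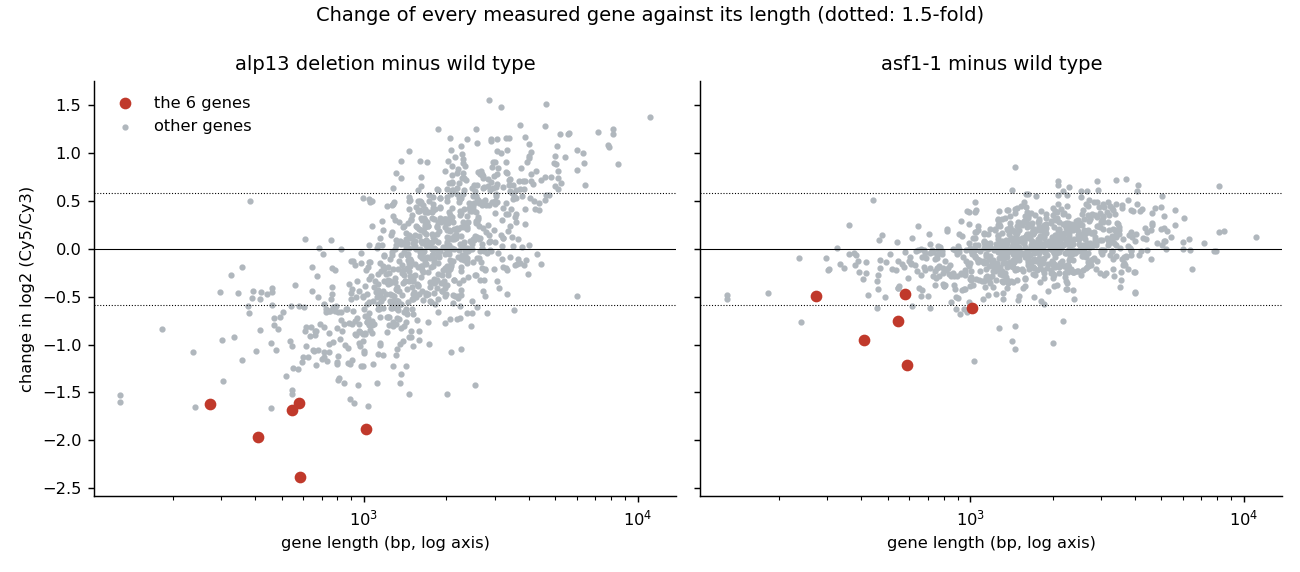
Change of H3K9ac (log2) against gene length (bp, log axis) for 893 protein-coding genes, in the alp13 deletion minus wild type (left) and asf1-1 minus wild type (right), with the 6 genes in red and dotted lines at 1.5-fold. At left the 6 lie at the lower edge, from -2.39 to -1.61, and the median change was -0.69 in the 224 shortest genes and 0.50 in the 224 longest; at right they lie from -1.21 to -0.47.

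Relative to the array median, short genes as a class had less H3K9ac in the alp13 deletion than in wild type. The 224 shortest genes, of 129 to 1201 bp, had a median change of -0.69, and 137 of them (61.2%) were lower by 1.5-fold or more and none was higher. That direction turns with the centring: centred on the probes between genes, 95 of the 224 passed 1.5-fold, of which 3 were lower and the rest higher, and without centring 67 passed, of which 59 were lower. Over 10899 probes between genes, the median change of the alp13 deletion was -1.07 and that of asf1-1 was -0.39, and each of the 6 genes lay below both. Short genes with a high level in wild type were set beside the 6, whose deeper fall follows from the choice. Among the 67 other genes of these 224 whose wild-type level was at or above that of SPBC1921.04c, the lowest of the 6, the median change was -0.76 in the alp13 deletion and -0.14 in asf1-1. Of these 67, 48 were lower by 1.5-fold in the alp13 deletion and 4 in asf1-1. Their median wild-type level, 1.005, was below the 1.47 of the 6, so the match is loose. For the 37 of them with a wild-type level of 1 or more, that median was 1.18. The median change of these 37 was -0.80 in the alp13 deletion, where 28 were lower by 1.5-fold, and -0.14 in asf1-1, where 2 were.

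tam9 and mrpl39 are among 19 genes with probes whose symbol or annotated product names a mitochondrial ribosomal protein. Of the 19, 7 were lower by 1.5-fold or more in the alp13 deletion, 1 was higher and 11 were within that range, with a median change of -0.26, against -0.06 over all genes. The sign of that median depends on the centring: it was 0.15 without centring and 0.92 with the arrays centred on the probes between genes, where all genes had 0.34 and 1.12. After mrpl39 (-1.89) and tam9 (-1.62) came yml6 (-1.35), which encodes uL4m of the large subunit, mrp7 (-0.81), which encodes bL27m, kgd4 (-0.66), mrps17 (-0.62), which encodes uS17m of the small subunit, and new15 (-0.60), which encodes bL35m. The place of kgd4 in the list rests on its annotated product name alone. The higher gene was mrpl35 (0.63). Without mrpl39 and tam9, 5 of 17 were lower (29.4%), a share to set against the 21.8% of all genes. In asf1-1, 1 of the 19, mrpl39, was lower by 1.5-fold.

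The genes with the most similar 3 levels were found by the root mean square difference from the mean profile of the 6, which was -0.51 in the alp13 deletion, 0.60 in asf1-1 and 1.35 in wild type. The closest were SPBC3E7.07c (0.18), SPBC83.12 (0.19), yml6 (0.21), mug124 (0.25) and rpc10 (0.25), over the 3 arrays. SPBC3E7.07c had -0.52 in the alp13 deletion, 0.54 in asf1-1 and 1.05 in wild type. Of the other genes near the top of the ranking, SPBC16E9.20 had another pattern, with -1.56 in the alp13 deletion, -1.09 in asf1-1 and 0.08 in wild type: its wild-type level was near the array median and its change in asf1-1 was -1.17.

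All changes are relative to the array median, and the calls depend on it. The median change of all genes in the alp13 deletion was -0.06 as reported, 0.34 without centring and 1.12 when the arrays were centred on the probes between genes. On the last scale the changes in the alp13 deletion were -1.20 at SPBC21B10.15, -0.79 at SPBC1921.04c, -0.70 at mrpl39, -0.49 at SPBC2A9.14, -0.43 at tam9 and -0.43 at SPBC336.16, and 3 of the 6 passed 1.5-fold. Of all genes, 3 were then lower and 705 higher by 1.5-fold, against 195 lower and 137 higher as reported. A change of centring shifts the difference of every gene by the same amount, so it cannot alter the rank of the 6 genes.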

How the data were processed

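H3K9ac immunoprecipitates (Cy5) and whole-cell extracts (Cy3) of 3 strains were read on 1 two-channel array each. The deposited intensity of each channel came from Agilent Feature Extraction 10.7.3.1, which had subtracted background, detrended the array and normalised the dyes linearly, per the file headers. The deposited log10 ratio column was used to check the direction, Cy5 over Cy3, per the file headers. The authors' deposited value table, taken as a score, has column medians of 0.0849 (alp13 deletion), -0.0204 (asf1-1) and 0.114 (wild type). Its columns correlated with the log ratios of their own arrays at 0.528, -0.58 and 0.226, in the same order. The alp13 deletion column correlated more closely with the asf1-1 (0.687) and wild-type (0.645) arrays than with its own. The wild-type column was nearly alike with the alp13 deletion (0.225) and asf1-1 (0.223) arrays. The asf1-1 column was strongest with its own array, against -0.57 (alp13 deletion) and -0.532 (wild type). These columns therefore cannot check which strain an array came from. Their scale, centring and direction stay unknown, and they entered no comparison.

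The log2 ratio of processed signals was centred on each array's median, after control and outlier spots were left out (43912 of 43993 probes kept). No loess or quantile step was used. Before centring the medians were 0.41 (alp13 deletion), 0.17 (asf1-1) and 0.00 (wild type). Background correction had been planned on mean signals, but the files hold median signals, which were used for the normexp alternative.

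Which build the probe positions follow is not given in the sources used. Probes were placed on ASM294v3 by the constant offset, within 4000 bp, that best matched base composition under each probe to the Cy3 signal: -900 bp left and -1800 bp right of array base 1619511 on chromosome II (r = 0.536 and 0.529, next best 0.324 and 0.325). The placement and the gene means were tested on simulated data. Printed coordinates are those of the ASM294v3 annotation, and 42972 probes were placed. An error in the offset would shift every value along the chromosome.

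Gene values are means over probes centred inside 893 protein-coding genes with 3 or more probes. The members, lists and settings were chosen with earlier results of these data known. Genes named are the 6, their next and overlapping genes, those ranked beside them, the mitochondrial ribosomal genes that passed the threshold and the 5 most similar genes. Python 3.11.15, pandas 2.3.3, numpy 2.4.6, R 4.3.3 and limma 3.58.1 were used. Alternatives were the centring, background correction, median in place of mean, Cy5 alone, 1 spread for all arrays, outlier spots, a position shift of 50 bp, the flank width and the fold threshold.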

Additional observations from a re-analysis of the deposited data

How the results depend on the processing

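No alternative reversed the sign of a change at any of the 6 genes: 18 changes were recomputed under 9 alternatives each, and 101 of 162 values moved by less than the spread across the gene's probes. As reported, 1.5-fold was passed by 6 of the 6 genes in the alp13 deletion, 4 in asf1-1 and 6 in asf1-1 minus the alp13 deletion, and by 332, 34 and 223 genes of all in either direction. Centred on intergenic probes, the members passing were 3, 1 and 0, all genes 708, 211 and 539, flanks 4 (alp13 deletion) and 0 (asf1-1), and mitochondrial ribosomal genes lower 1, and 95 of the 224 shortest genes passed (3 lower). Without centring, asf1-1 called 60 genes (10 lower and 50 higher) and 3 flanks, the alp13 deletion called 72 lower and 310 higher, asf1-1 minus the alp13 deletion 171 lower and 59 higher, 67 of the 224 shortest genes passed (59 lower), and 3 mitochondrial ribosomal genes were lower. With normexp, asf1-1 called 2 of the 6 and 90 genes, and asf1-1 minus the alp13 deletion 344. Cy5 alone called 187, 13 and 111 genes, and 90 of the 224 shortest lower. Of the 6, it called 2 in asf1-1 and 5 in asf1-1 minus the alp13 deletion. With arrays at 1 spread, asf1-1 called 2 of the 6 and 3 flanks, and flanks of 1000 bp gave 3. A 2-fold threshold gave 106, 3 and 41 genes and 59 of the 224 shortest. The cause of these moves was not tested, beyond what each setting changes by construction. No paired analysis was possible because each strain had 1 array, and for the same reason no replicate could be left out. Probes near background limit both channels. In Cy3, 39 probes (alp13 deletion), 94 (asf1-1) and 68 (wild type) were not well above background. In Cy5 the counts were 151 (alp13 deletion), 191 (asf1-1) and 60 (wild type).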

Other observations

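The gaps between coding genes at the 6, and the noncoding transcripts that overlap them, were also read. The summed distance to the next coding genes was 3243 bp at mrpl39, 2447 bp at SPBC1921.04c, 1564 bp at tam9, 1252 bp at SPBC21B10.15, 461 bp at SPBC2A9.14 and 293 bp at SPBC336.16, and the median of the 6 was 1408 bp against 692 bp over all genes. Here the side of SPBC336.16 that SPBC18A7.02c overlaps counted as 0 bp. With all genes cut into 4 groups by that distance, the median change in the alp13 deletion was 0.06, -0.06, -0.09 and -0.17 from the narrowest to the widest. In the same order the groups held 1, 1, 1 and 3 of the 6 genes, so wide gaps are not common to all 6. An annotated noncoding RNA overlaps 5 of the 6, all on the opposite strand: SPNCRNA.5290 at SPBC21B10.15, sno20 at SPBC1921.04c, SPNCRNA.5777 at mrpl39, SPNCRNA.1567 at SPBC2A9.14 and SPNCRNA.5794 at SPBC336.16. The same holds for 76.1% of all genes on either strand, so the count is near its background.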
